A study of Mus musculus with 6 samples.

Results

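The genes described here form the receiving end of the interferon system: the chains of the type I receptor (Ifnar1, Ifnar2) and of the interferon gamma receptor (Ifngr1, Ifngr2), the Janus kinases bound to them (Jak1, Jak2, Tyk2), the transcription factor Stat2, and the feedback inhibitor Usp18. They were chosen as a list of 9 symbols, each matched to its Ensembl gene among the 47729 genes counted. The list follows their roles in the pathway, but it was drawn up with earlier results of these data known. RNA-seq was done on 6 libraries of bone marrow-derived macrophages (BMMs), 3 from WT and 3 from Aif1-/- mice, to ask how loss of AIF1, a cytoplasmic protein of the myeloid lineage, changes these cells. Both genotypes were C57BL/6J, the Aif1-/- mice by backcrossing to that strain. The marrow came from male mice aged 8 weeks. The macrophages of both genotypes were immortalized with SV40 large T antigen, a viral oncoprotein that binds p53 and Rb. The lines of both genotypes were kept in medium with 10% FBS and 120 ng/ml CSF-1, the growth factor of macrophages, and were used at passages 3 to 5. No added interferon or other stimulus is given for either genotype. The libraries of a genotype are described as coming from independent animals. Whether the cells of each animal were immortalized separately is not given, and p-values therefore measure no more than the spread among these 6 libraries.

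Interferons act by bringing the chains of a receptor together. The kinases on the chains then phosphorylate each other, the receptor and the STATs. Type I interferon, through Tyk2 on Ifnar1 and Jak1 on Ifnar2, activates Stat2, which acts with Irf9 in the complex ISGF3 at interferon-stimulated response elements (ISRE). Interferon gamma, through Jak1 on Ifngr1 and Jak2 on Ifngr2, leads to binding at gamma-activated sites (GAS). Usp18 removes the ubiquitin-like protein Isg15 from its targets and also binds Ifnar2, where it blocks further signalling. Stat2 and Usp18 are themselves induced by interferon, whereas most receptor chains and kinases are expressed without it. Macrophages are both sources and targets of type I interferon.

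The promoters of Stat2, Ifngr1 and Jak1 are shown with that of Isg15, a classic ISRE gene, to look for the motifs of both response elements. Stat2, Ifngr1 and Jak1 differed between the genotypes in the test given below. For Ifngr1 and Jak1 this was lost when some single libraries were left out. The sequences are the 250 bases before the RefSeq start (GRCm38.p6, 5′ to 3′ on the strand of the gene), and capitals mark each match to the ISRE core. Stat2 lies at chr10:128270248-128270497 (+ strand), Isg15 at chr4:156200819-156201068 (− strand), Ifngr1 at chr10:19591699-19591948 (+ strand) and Jak1 at chr4:101265224-101265473 (− strand).
Stat2: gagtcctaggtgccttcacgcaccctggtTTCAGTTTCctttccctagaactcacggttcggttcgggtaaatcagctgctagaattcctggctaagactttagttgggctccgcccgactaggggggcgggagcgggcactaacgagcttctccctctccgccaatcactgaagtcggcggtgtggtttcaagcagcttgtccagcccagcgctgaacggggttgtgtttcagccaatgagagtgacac
Isg15: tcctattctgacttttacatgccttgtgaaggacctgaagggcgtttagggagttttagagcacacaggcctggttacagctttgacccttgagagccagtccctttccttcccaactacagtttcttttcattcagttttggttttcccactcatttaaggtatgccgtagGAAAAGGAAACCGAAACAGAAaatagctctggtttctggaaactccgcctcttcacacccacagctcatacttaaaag
Ifngr1: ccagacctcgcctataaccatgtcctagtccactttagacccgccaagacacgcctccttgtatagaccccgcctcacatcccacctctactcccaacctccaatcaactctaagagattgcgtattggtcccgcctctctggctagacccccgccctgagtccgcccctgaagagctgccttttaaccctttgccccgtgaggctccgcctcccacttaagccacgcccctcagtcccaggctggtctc
Jak1: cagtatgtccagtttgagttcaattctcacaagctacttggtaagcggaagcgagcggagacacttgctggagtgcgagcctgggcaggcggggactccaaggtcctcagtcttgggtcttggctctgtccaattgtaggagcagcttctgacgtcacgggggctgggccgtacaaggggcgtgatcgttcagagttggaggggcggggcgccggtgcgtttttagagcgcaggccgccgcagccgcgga

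The ISRE core was searched as GAAANNGAA on both strands, TTCNNTTTC on the reverse, and GAS as TTCNNNGAA, which reads the same on both strands. The window was 300 bases, 250 before and 50 after the start. Of 32851 mouse promoters of this length, 8.56% held the ISRE core and 8.30% held GAS. Of the 8 relay genes with a promoter in the RefSeq table, 1 held the ISRE core. It was Stat2, with the first base of the match at −221 from the start, on the reverse strand. In Isg15 there were 3 overlapping cores, at −78, −72 and −66. GAS was found in 2 of the 8, Ifnar1 at −5 and Ifnar2 at −214. No relay promoter held both motifs. The windows of Ifngr1, Ifngr2, Jak1, Jak2 and Tyk2 held neither word, which says only that these letters are not in these windows. Usp18 has no entry.

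Counts assigned to genes ranged from 17707986 to 29314253 per library, and every relay gene had at least 836 raw counts in each. Of the 17406 genes that passed the filter on low counts, 18.6% were called between the genotypes at an adjusted p of 0.05, 8.04% higher and 10.5% lower in Aif1-/- BMMs. Aif1 itself had raw counts of 220, 157 and 239 in WT and of 4, 4 and 1 in Aif1-/- libraries. Macrophage markers were well expressed in both genotypes, with 10 of 10 tested. Their summed level was 5905 to 6294 CPM (counts scaled to the library total) in WT and 7780 to 7962 CPM in Aif1-/- libraries. Of these markers, 7 were higher and 1 was lower, Cd14 at −0.40 on the log2 scale (adjusted p = 0.0456 by edgeR), which was named after its values were seen. The call of Cd14 was lost without WT replicate 1 (adjusted p = 0.0695) and without Aif1-/- replicate 1, 2 or 3 (adjusted p = 0.156, 0.121 and 0.168). Of 45 markers of 9 other cell types, 14 were at 0 in every library and 9 passed the filter. The highest raw count of any B cell, NK cell, neutrophil, fibroblast or erythroid marker in a library was 15, while Cd28 of the T cell list reached 6248. Markers of plasmacytoid dendritic cells reached 74 and those of conventional dendritic cells 44, with 2 tested and 0 called in each list. Platelet markers rose in 3 of 4 tested (Pf4, Ppbp and Treml1, named after their values were seen), from a summed 40.6 to 42.4 CPM in WT to 85.5 to 88.8 CPM in Aif1-/- libraries. The part of these shifts in the differences below was not tested. In bulk RNA, fewer cells of a type and less RNA per cell cannot be told apart. The Aif1-/- libraries were closer to each other than the WT libraries were, with a chi-square per degree of freedom between replicates of 2.52 to 3.54 against 11.4 to 49.8. Between libraries of different genotype it was 47.1 to 79.2. The farthest WT libraries, replicates 2 and 3, were thus as far apart as the closest libraries of different genotype.

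Of the 9 relay genes, 1 was higher, 3 were lower and 5 were not called. Over all tested genes, 8.04% were higher and 10.5% were lower. Stat2 and Usp18 fell to less than 50% of their WT level, Jak1 was slightly lower and Ifngr1 slightly higher. All 9 passed the filter. The libraries of the genotypes did not overlap for 8 of the 9, against a background of 35.7% of all tested genes. Fold changes here are Aif1-/- minus WT. The median log2 fold change was −0.11 over the 9 genes and −0.05 over the 7 receptor chains and kinases, beside −0.00354 over all tested genes. The 95% intervals of these 7 genes together ran from −22.9% to 37.0% of the WT level.

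**Figure D1:**
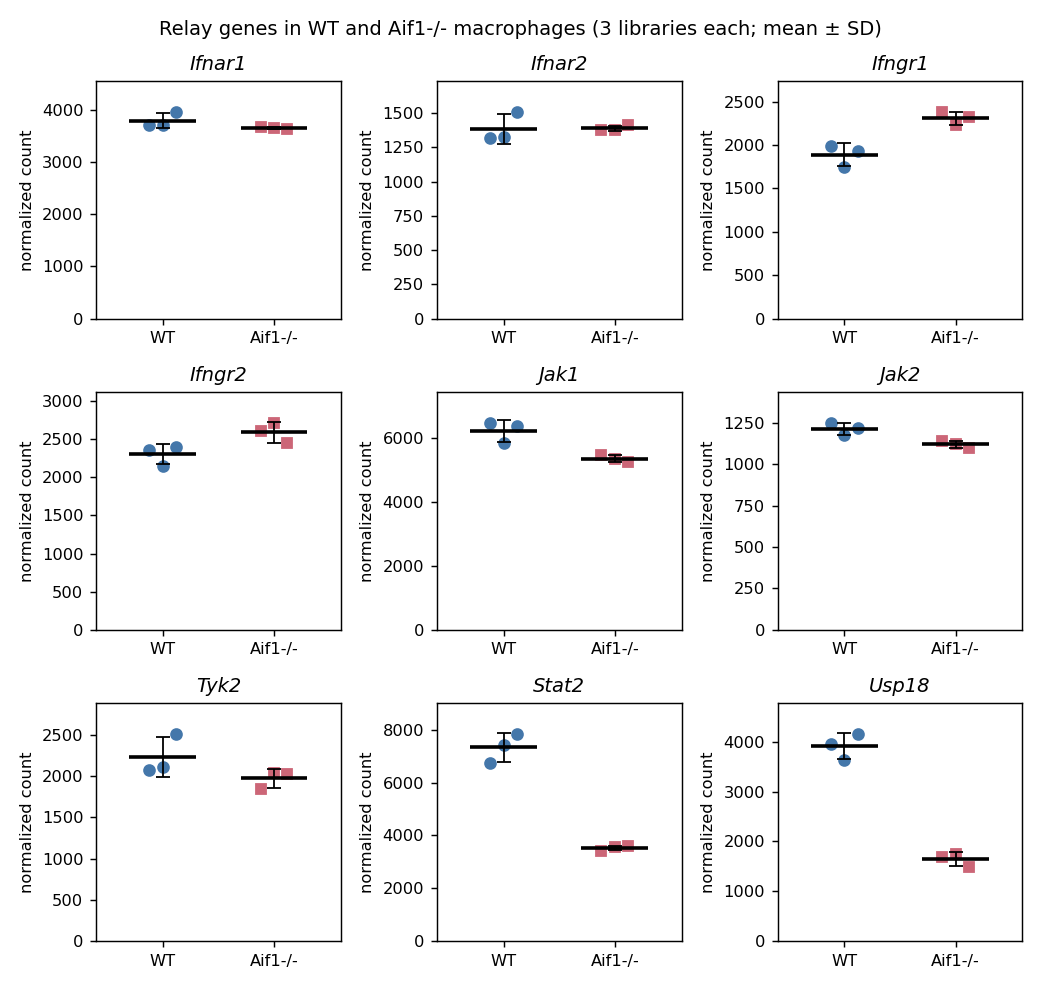
Normalized counts (counts scaled by TMM to the mean library) of the 9 relay genes in each of 3 WT (circles) and 3 Aif1-/- (squares) libraries, with the mean (line) and SD (bar), each y axis starting at 0. Stat2 drops from 7343 to 3523 and Usp18 from 3911 to 1638, while the receptor chains and kinases shift by far less.

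The receptor chains were described first. Ifnar1 (ENSMUSG00000022967, chromosome 16 of GRCm38, 91485238 to 91507441), the chain that carries Tyk2, had normalized counts of 3713, 3705 and 3957 in the WT libraries and of 3677, 3656 and 3630 in the Aif1-/- libraries. All Aif1-/- libraries lay below the WT libraries, but the nearest were only 28.4 normalized counts apart. The log2 fold change was −0.05 ± 0.06 (SE), not called by edgeR's quasi-likelihood test (adjusted p = 0.646), with an interval of −12.4% to 6.05%. Ifnar2 (ENSMUSG00000022971, 91372783 to 91405589), the chain that carries Jak1 and is held by Usp18, had 1320.2, 1323 and 1508 normalized counts in WT and 1376, 1377 and 1413 in Aif1-/- libraries. It was the only relay gene whose genotypes overlapped, and its log2 fold change was 0.00 (SE 0.08, adjusted p = 0.980), with an interval of −10.8% to 12.9%. A change of the size seen for Stat2 therefore lay outside the interval of either chain.

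Ifngr1 (ENSMUSG00000020009, chromosome 10, 19591949 to 19610229), the ligand-binding chain of the interferon gamma receptor, was the only relay gene called higher. Its normalized counts were 1987, 1743 and 1936 in WT and 2379, 2231 and 2319 in Aif1-/- libraries. All Aif1-/- libraries lay above all WT libraries. The rise was 22.3% (95% interval 9.29% to 37.0%), a log2 fold change of 0.29 with an SE of 0.07 and an adjusted p of 0.0186 by edgeR. The call was lost without any of the Aif1-/- libraries, with an adjusted p of 0.112, 0.0600 and 0.0866 without replicates 1, 2 and 3 and a log2 fold change of 0.27, 0.32 and 0.29.

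Ifngr2 (ENSMUSG00000022965, chromosome 16, 91547072 to 91565623), which brings Jak2 to the receptor, had 2354, 2151 and 2396 normalized counts in WT and 2606, 2712 and 2449 in Aif1-/- libraries. The Aif1-/- libraries all lay above WT, the nearest at 2449 and 2396. With a log2 fold change of 0.17 (SE 0.07) and an adjusted p of 0.148 by edgeR, it was not called. Without WT replicate 3 it was, at 0.21 with an adjusted p of 0.0287, so the count of relay genes that were higher went from 1 to 2 there and to 0 without any Aif1-/- library.

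Ifnar2, Il10rb, Ifnar1 and Ifngr2 lie in this order on the same strand within 192.84 kb of chromosome 16. Il10rb (ENSMUSG00000022969), the shared chain of the interleukin-10 and type III interferon receptors, had 3033 ± 212 normalized counts (SD, n = 3) in WT against 3039 ± 77.1 (SD, n = 3) without AIF1. Its log2 fold change was 0.00 (SE 0.07, adjusted p = 0.988 by edgeR). None of the 4 receptor genes of the cluster was called, nor was the long noncoding RNA A930006K02Rik or the pseudogenes Gm7856 and Gm7860 that lie between them. Gm21970, a gene model that shares 315 exonic bases of Ifnar2 on the same strand (9.46% of its exons), had 0 counts in all libraries.

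The kinases followed. Jak1 (ENSMUSG00000028530, chromosome 4, 101152367 to 101265282), the kinase common to both receptors, had 6467, 5842 and 6376 normalized counts in WT and 5468.0, 5341 and 5242 in Aif1-/- libraries. The highest Aif1-/- library, at 5468.0, was below the lowest WT library, at 5842. The level fell by 14.1% (95% interval −22.4% to −4.94%), a log2 fold change of −0.22 (SE 0.07, adjusted p = 0.0427 by edgeR). This call stood close to the threshold. It was lost without WT replicate 1 (adjusted p = 0.137) and without Aif1-/- replicate 1, 2 or 3 (adjusted p = 0.159, 0.202 and 0.219), at log2 fold changes of −0.23 to −0.19.

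Jak2 (ENSMUSG00000024789, chromosome 19, 29251828 to 29313080), the kinase on Ifngr2, had 1249.8, 1177 and 1221 normalized counts in WT and 1144, 1123 and 1101 in Aif1-/- libraries. The genotypes did not overlap, but the log2 fold change of −0.11 (SE 0.07, adjusted p = 0.321 by edgeR) was not called. Tyk2 (ENSMUSG00000032175, chromosome 9, 21104068 to 21131243), the kinase on Ifnar1, had 2075, 2112 and 2511 normalized counts in WT and 1847, 2044 and 2034 in Aif1-/- libraries. WT replicate 3 was high and Aif1-/- replicate 1 low, and the nearest libraries were 31.0 apart. Its log2 fold change of −0.18 (SE 0.09, adjusted p = 0.221) was not called. All 3 kinases were thus estimated lower in Aif1-/- BMMs, with 1 of the 3 past the threshold, against the 10.5% of all tested genes that were lower.

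Stat2 (ENSMUSG00000040033, chromosome 10, 128270559 to 128292849), which brings ISGF3 its main activation domain, had 6756, 7434 and 7838 normalized counts in WT and 3422, 3561 and 3585 in Aif1-/- libraries. The lowest WT library, at 6756, lay far above the highest Aif1-/- library, at 3585. Stat2 was thus 2.08-fold lower, at a log2 fold change of −1.06 with an SE of 0.07, a 95% interval of −1.22 to −0.90 and an adjusted p of 3.38e-06 by edgeR. Of all tested genes, 4.35% had a lower log2 fold change. In raw counts the WT libraries held 6719, 8762 and 9283 and the Aif1-/- libraries 3875, 2674 and 2723. Over 13 alternative fits the log2 fold change stayed between −1.12 and −1.01, with a highest adjusted p of 9.59e-05.

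Usp18 (ENSMUSG00000030107, chromosome 6, 121245906 to 121270917) fell further. Its normalized counts were 3947, 3633 and 4152 in WT and 1691, 1745 and 1479 in Aif1-/- libraries. Both groups were tight and far apart. The level was 2.39-fold lower, a log2 fold change of −1.25 with an SE of 0.08, a 95% interval of −1.44 to −1.07 and an adjusted p of 3.11e-06 by edgeR. Of all tested genes, 3.57% had a lower log2 fold change. Over the 13 alternative fits it stayed between −1.30 and −1.18, with a highest adjusted p of 0.000127.

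**Figure D2:**
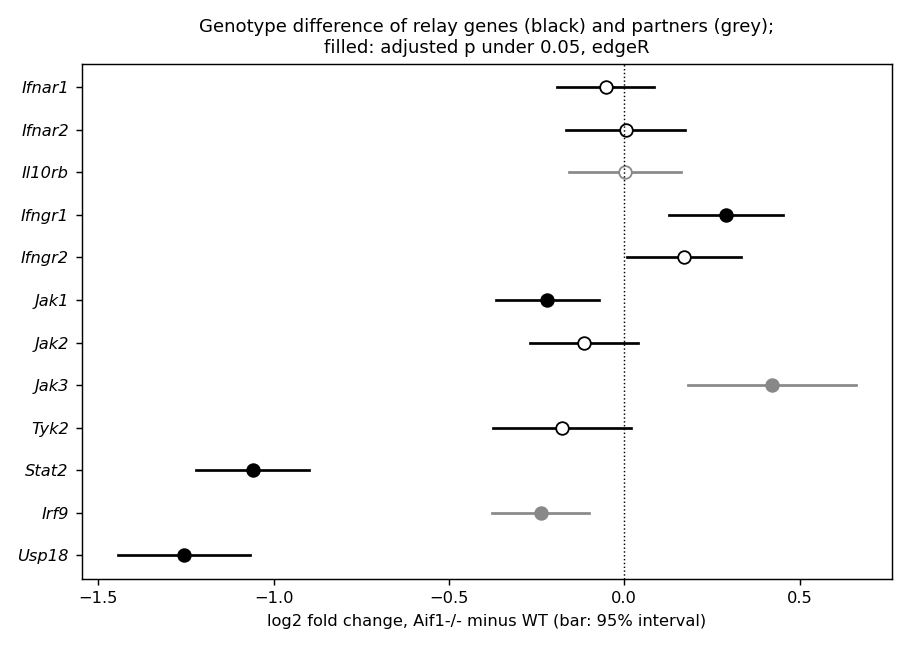
Log2 fold change (x axis, Aif1-/- minus WT) with its 95% interval for the 9 relay genes (black) and 3 partners (grey), filled where the adjusted p of edgeR was under 0.05. Stat2 at −1.06 and Usp18 at −1.25 stand well to the left, while the receptor chains and kinases lie between −0.22 and 0.29.

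Among the partners of these genes, Irf9, the DNA-binding subunit of ISGF3, went from 2734 ± 75.5 normalized counts (SD, n = 3) in WT to 2318 ± 29.5 (SD, n = 3) in Aif1-/- BMMs. It fell by 0.24 on the log2 scale (SE 0.06, adjusted p = 0.0226 by edgeR), less than Stat2 in size. Without Aif1-/- replicate 1, 2 or 3 the call of Irf9 was lost (adjusted p = 0.159, 0.136 and 0.111).

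Jak3, the kinase of receptors with the common gamma chain, rose from 497 ± 50.9 to 667 ± 50.4 normalized counts. This was a log2 fold change of 0.42 (SE 0.11, adjusted p = 0.0198 by edgeR), and the call was lost without WT replicate 1 (adjusted p = 0.0708) and without Aif1-/- replicate 2 or 3 (adjusted p = 0.0809 and 0.109). Ifnlr1, the ligand-binding chain for type III interferon, was scarce in WT and not detected in Aif1-/- BMMs. Its raw counts were 23, 14 and 23 against 0 in each Aif1-/- library, and taking 3 counts over the 3 Aif1-/- libraries as the limit that 0 allows, it was at least 15.6-fold lower (adjusted p = 0.00178). The list of partner receptors, kinases and STATs held 9 genes, not all of them named here, and 8 were tested. Of these, 1 was higher (Jak3), 2 were lower (Irf9 and Ifnlr1) and 5 were not called. Over all tested genes, 8.04% were higher and 10.5% lower. The median log2 fold change of the list was −0.12. The count that was lower went to 1 without Aif1-/- replicate 1, 2 or 3, where Irf9 lost its call. The count of partners that were higher went to 2 without WT replicate 3 and to 0 without the libraries that cost Jak3 its call.

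The balance between genes that work as pairs was then compared within each library, where scaling between libraries plays no part. With 3 libraries against 3, the exact permutation test cannot give a two-sided p below 0.1, and 5 pairs were compared. The ratio of Usp18 to Ifnar2, the chain it binds, was 2.99, 2.75 and 2.75 in WT and 1.23, 1.27 and 1.05 in Aif1-/- libraries. The genotypes stood apart, and the mean log2 ratio fell by 1.26, from 1.50 ± 0.07 to 0.23 ± 0.15 (SD, n = 3 each; exact permutation p = 0.1, adjusted over the 5 pairs 0.25).

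The chains of each receptor kept a closer balance. The mean log2 ratio of Ifnar1 to Ifnar2 was 1.46 ± 0.06 in WT and 1.40 ± 0.03 in Aif1-/- libraries (SD, n = 3 each), which overlapped (exact permutation p = 0.3, adjusted 0.375). The ratio of Ifngr1 to Ifngr2 was −0.29 ± 0.04 and −0.16 ± 0.11 on the log2 scale and overlapped as well (exact permutation p = 0.2, adjusted 0.333). Of the kinase pairs, Jak1 to Tyk2 overlapped, at 1.48 ± 0.15 and 1.44 ± 0.11 (exact permutation p = 0.7, adjusted 0.7), and without WT replicate 1 the difference changed sign, from −0.05 to 0.03. Jak1 to Jak2 did not overlap, at 2.36 ± 0.04 and 2.25 ± 0.00, but differed by only 0.10 (exact permutation p = 0.1, adjusted 0.25). In all, 2 of the 5 pairs had genotypes that did not overlap.

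**Figure D3:**
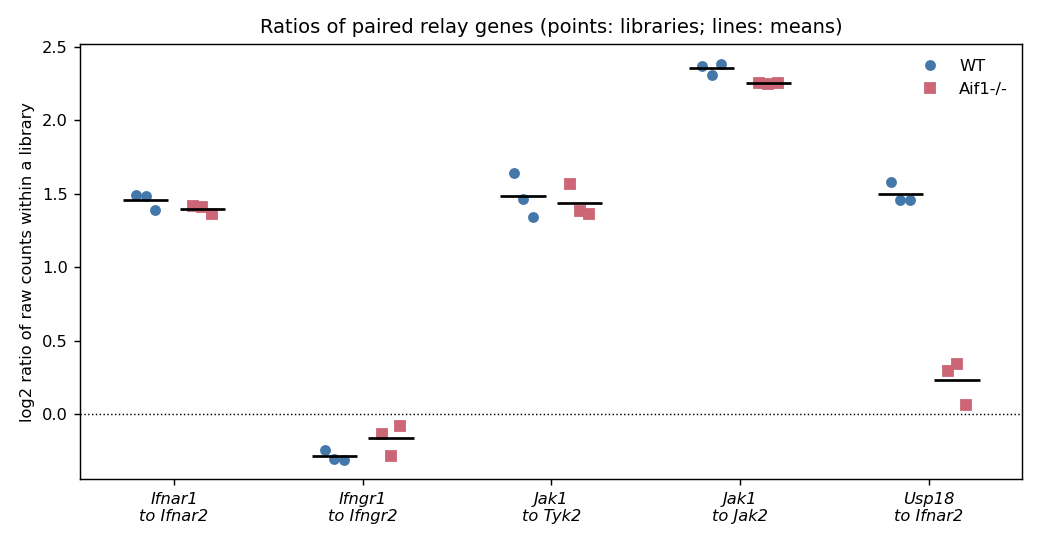
Log2 ratio of raw counts within a library (y axis) for 5 pairs of relay genes, with each of 3 WT (circles) and 3 Aif1-/- (squares) libraries and the group mean (line). The ratio of Usp18 to Ifnar2 differs by −1.26 between the group means, while the ratios of the chains within a receptor overlap.

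Compared per length, the order of the relay genes changed with genotype. These levels are RPKM, reads per kilobase of exons scaled to the depth of the library. In WT BMMs, Usp18 led with 59.7 ± 3.99 (SD, n = 3) and Stat2 followed with 52.7 ± 3.93, and their libraries overlapped. Jak1 came next at 36.7 ± 1.99. Ifngr1 at 28.2 ± 1.93, Ifnar1 at 27.2 ± 1.02 and Ifngr2 at 26.0 ± 1.48 overlapped with their neighbours in the order. Ifnar2 at 17.7 ± 1.38, Tyk2 at 13.8 ± 1.50 and Jak2 at 10.3 ± 0.311 stood below them without overlap.

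In Aif1-/- BMMs the order opened with Ifngr1 at 34.5 ± 1.12 RPKM, followed by Jak1 at 31.5 ± 0.668, Ifngr2 at 29.3 ± 1.49 and Ifnar1 at 26.2 ± 0.167. Stat2 at 25.3 ± 0.632 and Usp18 at 25.0 ± 2.15 came after them and overlapped each other. Ifnar2 at 17.8 ± 0.268, Tyk2 at 12.2 ± 0.690 and Jak2 at 9.50 ± 0.182 kept the last places. By their means, Stat2 and Usp18 thus stood above every receptor chain in WT and below Ifngr1, Ifngr2 and Ifnar1 in Aif1-/- BMMs. There the libraries of Usp18 (22.6 to 26.6) overlapped those of Ifnar1 (26.0 to 26.3), whereas those of Stat2 did not. Reads in exons shared with another gene are left out by the counting, so the level of Ifnar2 may be understated in both genotypes. If the counting did not separate strands, the same holds for Tyk2 and Usp18, whose overlaps are given below.

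**Figure D4:**
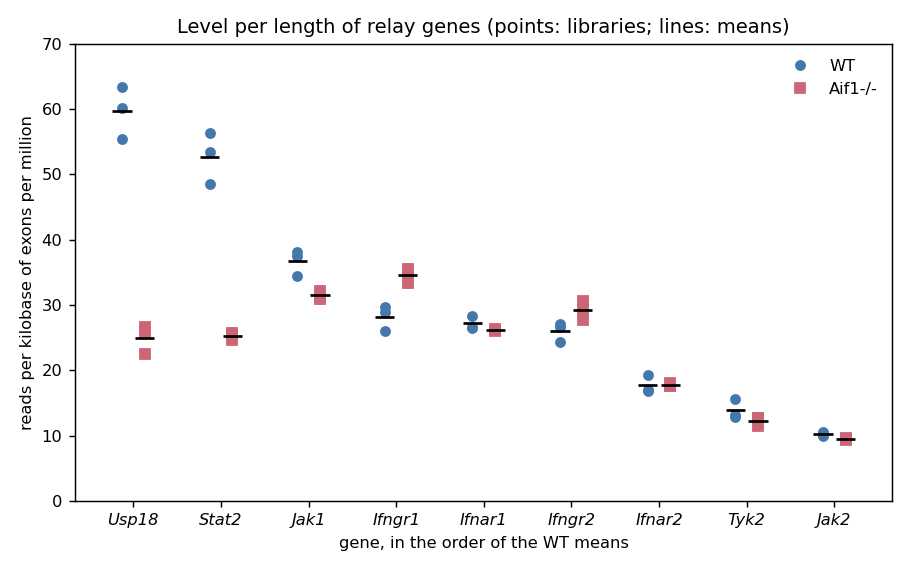
Level of each relay gene in RPKM (y axis), in the order of the WT means, with each of 3 WT (circles) and 3 Aif1-/- (squares) libraries and the group mean (line). Usp18 and Stat2 lead in WT at 59.7 and 52.7 and drop to 25.0 and 25.3 in Aif1-/- BMMs, close to the receptor chains.

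Replicates of the relay genes were tight. The coefficient of variation was 3.02% to 10.8% in WT and 0.640% to 8.59% in Aif1-/- libraries, and it was smaller in Aif1-/- BMMs for 8 of the 9 genes. Other genes share exonic bases with a few of them. Tyk2 overlaps the antisense gene 1700084C06Rik in 554 exonic bases (8.07% of its exons), and that gene had 123 raw counts over the WT and 96 over the Aif1-/- libraries. Usp18 overlaps the noncoding RNA Gm44148 on the opposite strand in 124 exonic bases (4.44%), with 24 and 17 raw counts. Jak1 and Raver2 meet tail to tail over 4 bases, with 92 and 103 raw counts of Raver2. Over 3 libraries these counts are small beside the 836 or more of each relay gene in a single library. They do not include reads left out in the shared bases, so they do not show how many reads the overlaps cost. No gene overlaps Stat2, Ifngr1, Ifngr2, Ifnar1 or Jak2 in the annotation.

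The ligands were nearly silent. Of 21 interferon genes, 17 had 0 counts in every library. Ifnb1, the interferon beta gene, had raw counts of 12, 21 and 4 in WT and 10, 2 and 9 in Aif1-/- libraries. It was the only ligand that passed the filter, and its log2 fold change of −0.48 (SE 0.67, adjusted p = 0.708 by edgeR) was not called. Its interval, −1.97 to 1.01, leaves room for sizeable changes in either direction. Without WT replicate 2 the estimate changed sign, to 0.08. Ifnz had raw counts of 5, 3 and 6 in WT and 3, 0 and 1 in Aif1-/- libraries. Ifna13 had at most 4 and Ifnk at most 3 counts in a library. At these counts a difference within that interval was not detectable for Ifnb1, and the other ligands had too few counts to be tested.

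Genes known for ISRE-type induction were lower together with Stat2 and Usp18. Of the 9 tested genes known for GAS-type induction, 5 were lower too and 2 were higher. The lists were written with earlier results of these data known, so their direction is not independent evidence. Of 22 genes known for ISRE-type induction, 22 were lower and 0 were higher (0 at an unadjusted p under 0.05, and 0 by DESeq2). Over all tested genes, 10.5% were lower and 8.04% higher. The median log2 fold change of the list was −0.95, with a range of −6.85 to −0.32. The count that was lower went to 21 without WT replicate 1 and without Aif1-/- replicate 1, 2 or 3. Ifi44, an interferon-induced gene of unclear biochemical role, went from 712 ± 88.4 (SD, n = 3) to 5.90 ± 2.86 (SD, n = 3) normalized counts. Rsad2, which encodes the antiviral enzyme viperin, fell by 1.52 on the log2 scale, Ifit1, whose product binds foreign RNA caps, by 1.51, and Ifit3, its partner, by 1.41. Their adjusted p-values by edgeR were 3.15e-08, 2.90e-07, 8.08e-07 and 9.39e-07.

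Of 11 genes known for GAS-type induction, 9 were tested, 5 were lower and 2 were higher (10.5% and 8.04% of all tested genes). Their median log2 fold change was −1.05. Gbp2, a GTPase of cell-autonomous defence, fell by 1.49 on the log2 scale, Icam1, an adhesion molecule, by 1.87, Tap1, a peptide transporter of antigen presentation, by 1.05, and Ciita, the master regulator of MHC class II genes, by 2.75. The other gene that was lower was Psmb9, an immunoproteasome subunit, at −0.36. Tap1 and Psmb9 lie on chromosome 17 (from 34187553 and 34181987), as does Aif1 (from 35170991). Any part of DNA linked to Aif1 in their fall was not tested. The genes that rose were Fcgr1, a high-affinity Fc receptor, at 0.41 (adjusted p = 0.0189 by edgeR), and Irf8, a transcription factor of the myeloid lineage, at 0.41 (adjusted p = 0.00979). Psmb9, Fcgr1 and Irf8 were named after their values were seen. Fcgr1 is also among the macrophage markers that were higher. The count of 2 that were higher went to 0 without WT replicate 1, Aif1-/- replicate 1 or Aif1-/- replicate 3, and to 1 without Aif1-/- replicate 2. Psmb9 lost its call without WT replicate 1 and without each Aif1-/- replicate (adjusted p = 0.0639, 0.120, 0.124 and 0.0826).

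Transcripts of the pathway that Usp18 opposes were lower as well, while Isg15 conjugation itself was not measured. Of 5 genes of Isg15 conjugation, 5 were lower (10.5% of all tested genes were), with a median log2 fold change of −0.71. Isg15 went from 2397 ± 402 (SD, n = 3) to 1018 ± 47.5 (SD, n = 3) normalized counts, a fall of 1.23 on the log2 scale (SE 0.12, adjusted p = 3.64e-05 by edgeR), close to that of Usp18. Herc6, the main mouse ligase for Isg15, fell by 1.01, Ube2l6, its conjugating enzyme, by 0.70, Trim25, another ligase, by 0.50, and Uba7, its activating enzyme and named after its values were seen, by 0.71.

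Most other inhibitors of the relay were not called, though the estimates for Socs1 and Cish were close in size to that of Usp18. Of 18 genes for SOCS proteins, phosphatases and PIAS proteins, 1 was higher and 0 were lower (8.04% and 10.5% of all tested genes). Their median log2 fold change was −0.02 (edgeR). At an unadjusted p under 0.05, 3 were lower (Socs1, Cish and Ptprc, named after their values were seen), and by DESeq2 0 were. The gene that rose was Ptpn1, which encodes a phosphatase of Jak2 and Tyk2, from 1986 ± 201 to 2619 ± 67.0 normalized counts (log2 fold change 0.40, standard error 0.08, adjusted p = 0.00632 by edgeR). Just short of the threshold were Socs1, an interferon-induced inhibitor of Jak1 and Tyk2, at −1.16 (adjusted p = 0.0577), Cish at −1.13 (adjusted p = 0.0550) and Socs2, also named after its values were seen, at 1.99 (adjusted p = 0.0663). Socs1 was called without WT replicate 2 (adjusted p = 0.0302) and Socs2 without WT replicate 1, at a log2 fold change of 3.36 (adjusted p = 0.0100), and the count of this list that was higher went from 1 to 2 without WT replicate 1 or WT replicate 3. Their raw counts were low, 13 to 96 for Socs1, 7 to 49 for Cish and 1 to 21 for Socs2.

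Chains of other cytokine receptors that use the same kinases moved in both directions. Of 33 such genes 20 were tested, 5 were higher and 4 were lower (8.04% and 10.5% of all tested genes). Their median log2 fold change was −0.16. Il21r, the interleukin-21 receptor, rose from 381 ± 37.0 to 2177 ± 86.2 normalized counts (log2 fold change 2.52, standard error 0.09, adjusted p = 3.97e-08 by edgeR). Il10ra, the ligand-binding chain for interleukin-10, rose by 0.61. Il6st, the signal chain gp130, fell by 0.78 and Il2rg, the common gamma chain, by 0.84. The others called, all named after their values were seen, were Il6ra at 0.51, Il4ra at 0.45 and Il7r at 0.22, and Il12rb1 at −2.58 and Il13ra1 at −0.31. The count that was lower went from 4 to 7 without WT replicate 3 and to 2 without Aif1-/- replicate 1, where Il12rb1 (adjusted p = 0.0518) and Il13ra1 (adjusted p = 0.108) lost their calls. Il7r and Il13ra1 also lost theirs without WT replicate 1 (adjusted p = 0.0678 and 0.129), Aif1-/- replicate 2 (0.186 and 0.170) or Aif1-/- replicate 3 (0.120 and 0.188), and Il7r without Aif1-/- replicate 1 (0.159).

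**Figure D5:**
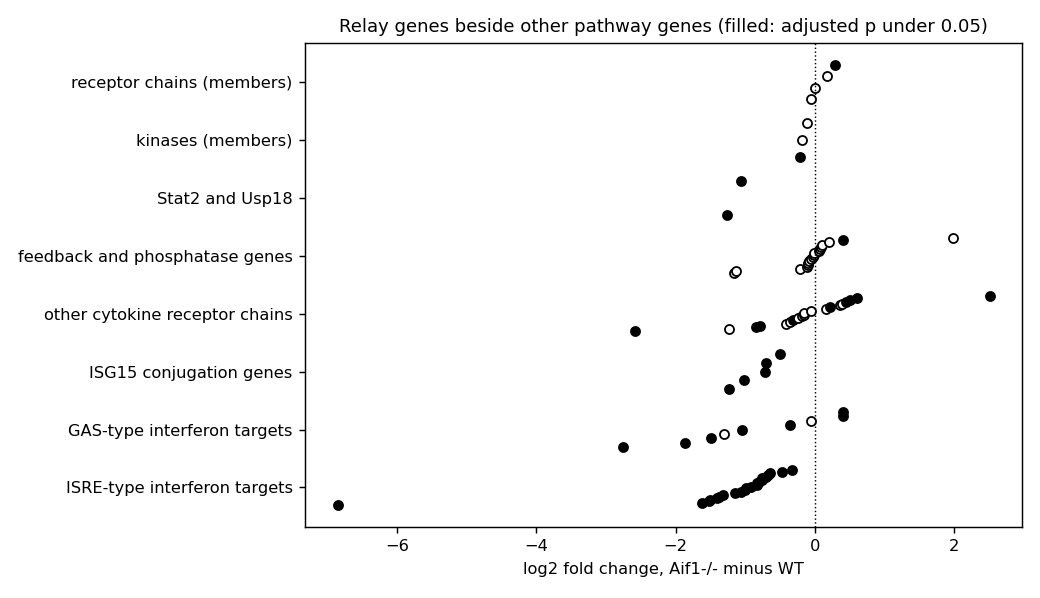
Log2 fold change (x axis, Aif1-/- minus WT) of each tested gene of the relay and of 5 related lists (rows), filled where the adjusted p of edgeR was under 0.05. All 22 ISRE-type genes and all 5 Isg15 conjugation genes lie left of 0 with Stat2 and Usp18. The 3 kinases lie slightly left of 0, while receptor chains and inhibitors lie on both sides of it.

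The genes whose levels ran most like those of Stat2 and Usp18 were looked for over the 6 libraries. Likeness was the root mean square difference of log2 CPM, each gene centred on its own mean, over 12129 genes whose log2 CPM averaged 2 or more. For Stat2 the closest were Ccl3, a chemokine (0.0411), Kcnh2, a potassium channel (0.0432), Cd274, the ligand of PD-1 (0.0646), Xdh, xanthine dehydrogenase (0.0676), and Rnf144b, a ubiquitin ligase (0.0686). For Usp18 they were Gas7, a cytoskeletal adaptor (0.0567), Slc25a13, a mitochondrial carrier (0.0660), Ifit3b, an interferon-induced gene (0.0755), Nectin4, an adhesion molecule (0.0790), and Cblb, a ubiquitin ligase (0.0805). Usp18 ranked 97 in the list of Stat2 and Stat2 ranked 63 in that of Usp18 with a difference of 0.151. With 6 libraries in 2 genotypes, likeness here mostly measures an equal difference between the genotypes.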

How the data were processed

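RNA-seq was done on 3 WT and 3 Aif1-/- BMM libraries from 200 ng of total RNA after ribosomal depletion. The deposited values are raw counts per gene, not normalized. As the submitters' processing notes and the study's methods give it, the authors trimmed reads (Trim Galore 0.5), aligned them to GRCm38 with at most 1 location per read (TopHat2 2.0.13) and counted them per gene of Ensembl release 84 at default settings (HTSeq 0.6.1p1). Whether the counting separated strands could not be told. Reads in exons shared by genes on opposite strands may therefore have been left out for both genes. Of the counted reads per library, 25.5% to 40.4% matched no gene and 4.55% to 7.15% were ambiguous, and both stayed out of library sizes and tests.

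Genotypes were compared with the quasi-likelihood test of edgeR 4.0.16 in R 4.3.3, using TMM scaling, its default filter on low counts and Benjamini-Hochberg adjustment over 17406 genes at a threshold of 0.05. SEs were taken from the log2 fold change and the F value, and intervals are at 95%. Normalized counts are counts over TMM-scaled library sizes, on the scale of the mean library, and a prior count of 2 went into log2 CPM. RPKM used merged exons of GENCODE M21, which matched 47224 of 47729 gene IDs. Ratios within a library were compared by exact permutation (SciPy 1.17.1). Counting intervals and floors cover counting error only. The scripts were tested on simulated counts. Gene totals per library of 17707986 to 29314253 set the precision.

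The relay genes, the gene lists and the tests were chosen with earlier results of these data known. The naming rule took the 9 relay genes, Aif1, 4 partners, up to 4 genes per list with the smallest adjusted p past the threshold, genes within or over the receptor loci, and the 5 genes most like Stat2 and Usp18 in level. Alternatives were RLE and upper-quartile scaling, DESeq2 1.42.0, no filter, a filter of 50 counts or more in 3 or more libraries, a replicate block, the share of reads matched to no gene as a covariate, each library left out in turn and, for ratios, raw counts plus 1. Results for 1 gene, with its pair, are not reported here, and it was left out of the partner list and the ratios.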

Additional observations from a re-analysis of the deposited data

How the results depend on the processing

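Stat2 and Usp18 kept their direction and call under all 13 alternatives, and so did Isg15. The calls of Jak1 and Ifngr1 did not. With the share of reads matched to no gene as a covariate, 2678 genes were higher and 2839 lower (1399 and 1832 in the reported fit), 2 relay genes, 2 partners and 2 feedback genes were higher, 7 other receptor chains were lower, and Ifngr2 was called at 0.19 (adjusted p = 0.0125). With no filter, 2 feedback genes were higher, 1 partner was lower (2 in the reported fit), and Jak1 stood at −0.21 (adjusted p = 0.0826). Under both of these settings Socs1 and Cish were called lower and Socs2 higher. With at least 50 counts in 3 libraries, 1 partner was lower, since Ifnlr1 was not tested. Without the filter the calls of Irf9 (adjusted p = 0.0621), Il7r (0.0509) and Il13ra1 (0.0655) were also lost. DESeq2 called 1465 genes higher and 1790.0 lower and did not call Il13ra1 (adjusted p = 0.0576). The cause of the other shifts was not tested.

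The same replicate numbers do not pair the libraries (correlations of their deviations from the group means were −0.0858 to 0.0601). A replicate block left 1267 genes higher and 1605 lower, and Jak1 at −0.22 lost its call (adjusted p = 0.0777), as did Irf9 (adjusted p = 0.0509), Il7r (0.0688), Il13ra1 (0.0518) and Cd14 (0.0541), which left 1 partner lower. It ended no other call of a gene named here.

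With 1 library left out, 874 to 2404 genes were higher and 1166 to 2485 lower, with the fewest higher without Aif1-/- replicate 1 and the most without WT replicate 3. The count that was higher was 0 to 2 for relay genes, 0 to 2 for partners, 1 to 2 for feedback genes and 0 to 2 for GAS-type targets, and 1 to 3 partners and 2 to 7 other receptor chains were lower. Log2 fold changes ranged over −0.0282 to 0.0770 for Ifnar2, 0.24 to 0.33 for Ifngr1, 0.13 to 0.21 for Ifngr2, −0.26 to −0.19 for Jak1, −0.0501 to 0.0353 for Il10rb and −0.91 to 0.0773 for Ifnb1, and the log2 ratio of Jak1 to Tyk2 over −0.115 to 0.0329. Among the fold changes and ratios refitted, signs changed only for Ifnar2, Il10rb, Ifnb1 and that ratio, none of them called. Depth limits the interferon genes, of which only Ifnb1 could be tested.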
